A study of Mus musculus with 4 samples.

Results

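The genes described here are 10 transcriptional targets and feedback components of bone morphogenetic protein (BMP) signalling, taken by symbol from the count tables of mouse somitic gastruloids: Id1, Id2, Id3, Id4, Msx1, Msx2, Smad6, Smad7, Bambi and Smad9. All 10 were among the 24831 genes listed, and all 10 passed the filter on low counts together with 13592 other genes. Somitic gastruloids are aggregates of embryonic stem cells that elongate in culture and form presomitic tissue and somites. Their total RNA was sequenced after removal of ribosomal RNA, and the question was how the transcriptome differs after degradation of the ZEB2 protein.

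Every library came from E14 embryonic stem cells with a triple reporter, in which the endogenous Zeb2 gene is fused to an HA-FKBP12 F36V tag, a degron. The dTAG-13 group (2 libraries) received 100 nM of dTAG-13, a small molecule that sends such tagged protein to the proteasome, at 72 h and 96 h. The untreated group (2 libraries) carries the same tagged allele, and the protocol gives DMSO as the control. Both groups started from 300 cells per well, received 3 μM of the WNT activator CHIR99021 from 48 h and were embedded in 10% Matrigel at 96 h. The 2 libraries of a group are numbered 1 and 2; the labels do not state separate cultures, so the spread behind each p-value is that of the libraries and could be technical. Reads counted in genes ranged from 11491330 to 12716172 per library. Reads assigned to no gene made up 25.3% and 29.2% in the dTAG-13 libraries and 35.7% and 24.1% in the untreated libraries. The ZEB2 protein was not measured, and Zeb2 mRNA, which dTAG-13 does not target, was at 103 and 108 CPM with dTAG-13 and at 98.3 and 164 CPM in untreated gastruloids (CPM, the read count scaled to library size with TMM factors), so it does not check the labels. Somite and presomitic markers were read in all libraries, most of them at lower levels with dTAG-13: Meox1 was at 81.2 and 37.8 CPM with dTAG-13 and at 168 and 77.2 CPM untreated, and Tbx6 was at 10.3 and 7.30 CPM with dTAG-13 and at 19.5 and 13.3 CPM untreated.

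BMP ligands bind paired serine/threonine kinase receptors that phosphorylate SMAD1, SMAD5 and SMAD9, which enter the nucleus with SMAD4 and act at GC-rich sites and SMAD boxes. Among the most direct responses are the Id genes, whose products lack a DNA-binding region and hold E proteins away from DNA, the homeobox genes Msx1 and Msx2, and a set of inhibitors (SMAD6, SMAD7, BAMBI) that dampen the signal from which they arise. ZEB2, also known as SIP1, was found as a partner of activated SMAD proteins and represses transcription through E-boxes that contain CACCTG. In the embryo BMP signalling patterns the mesoderm, the surface ectoderm and the dorsal neural tube.

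The promoters of 7 of the 10 genes were in the RefSeq promoter table (build GRCm38.p6), and the 250 bases before the annotated start were searched on both strands for 3 motifs: GGCGCC, a GC-rich site known to bind SMAD1 and SMAD5; GTCTG, a SMAD box with its flanking base; and CACCTG, the E-box bound by ZEB proteins. Id1, Smad7 and Bambi had no entry. The 4 promoters printed are those of the 2 genes with the largest difference between the groups (Msx2 and Msx1), of Id4, the Id gene with the largest difference, and of Id2, the gene with the smallest. They run 5′ to 3′ in lower case, with GGCGCC and CACCTG in capitals. Msx2 lies at chr13:53472781-53473030 (minus strand), Msx1 at chr5:37824586-37824835 (minus strand), Id4 at chr13:48260866-48261115 (plus strand) and Id2 at chr12:25096093-25096342 (minus strand).
Msx2: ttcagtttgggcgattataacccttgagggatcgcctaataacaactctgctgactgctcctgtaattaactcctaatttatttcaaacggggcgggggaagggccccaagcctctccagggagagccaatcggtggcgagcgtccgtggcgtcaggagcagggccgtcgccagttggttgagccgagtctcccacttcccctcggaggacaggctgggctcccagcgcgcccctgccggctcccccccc
Msx1: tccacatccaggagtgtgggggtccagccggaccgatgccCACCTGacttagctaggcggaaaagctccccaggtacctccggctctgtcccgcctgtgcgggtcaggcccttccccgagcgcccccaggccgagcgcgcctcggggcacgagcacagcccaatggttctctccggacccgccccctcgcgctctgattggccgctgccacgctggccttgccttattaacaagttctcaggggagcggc
Id4: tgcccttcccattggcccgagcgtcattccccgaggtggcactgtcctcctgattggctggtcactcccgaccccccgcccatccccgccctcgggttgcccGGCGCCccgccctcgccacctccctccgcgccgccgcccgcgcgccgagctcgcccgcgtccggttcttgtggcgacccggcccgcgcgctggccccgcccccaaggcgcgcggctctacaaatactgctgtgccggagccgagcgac
Id2: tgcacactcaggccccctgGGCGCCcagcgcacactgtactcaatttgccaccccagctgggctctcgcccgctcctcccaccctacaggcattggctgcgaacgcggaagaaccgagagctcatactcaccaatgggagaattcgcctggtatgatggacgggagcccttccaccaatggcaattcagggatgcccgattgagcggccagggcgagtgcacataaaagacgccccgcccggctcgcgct
GGCGCC stood in 3 of the 7 promoters (Id2, Id4 and Smad9), against 9.59% of all 32851 promoters in the table. In Id4 it spans bases 148 to 143 before the start, and in Id2 bases 231 to 226. The 7 promoters ranged from 61.6% to 75.6% in G and C, where the median of all promoters was 52.4%. CACCTG stood in 2 of the 7 (Msx1, bases 210 to 205, and Smad9, on the opposite strand), against 17.2% of all promoters, and GTCTG in 1 of the 7 (Id3), against 42.2%. No matches overlapped one another, and the Msx2 window holds none of the 3 motifs. Matches describe these letters in this window only, and the window depends on the start used. In the GENCODE vM21 annotation Id4 starts further downstream, at 48261228. There Id2, Id3 and Msx2 start further upstream, at 25097140, 136143497 and 53473074. The windows of Id2, Id3 and Msx2 therefore lie within those genes as GENCODE draws them. The windows of Smad6 and Smad9 hold the RefSeq gene starts, 64022085 and 54755455, and so lie partly within those genes. The GGCGCC of Smad9, 51 to 46 bases before the end of its window, lies downstream of that RefSeq start.

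All 10 genes were higher with dTAG-13 than in untreated gastruloids, in replicate number 1 and in replicate number 2. Across all tested genes, 27.7% were higher in both numbers. The median log2 fold change of the 10 genes was 0.83 (1.78-fold), where that of all tested genes was 0.00, and 2.73% of all genes reached the median of the 10. Leaving out dTAG-13 replicate 1 brought the median of the 10 to 0.39, and leaving out untreated replicate 1 brought it to 1.45. For 6 of the 10 genes both dTAG-13 libraries stood above both untreated libraries, against 14.4% of all tested genes. The summed level of the 10 genes was 508 and 378 CPM with dTAG-13 and 342 and 207 CPM untreated. By edgeR's quasi-likelihood test, fitted with no term beside the group, 0 of the 10 passed an adjusted p of 0.05, and 0% of all 13602 genes did; 3 of the 10 (Msx2, Bambi and Smad6) had an unadjusted p under 0.05 and stood higher with dTAG-13, against 2.29% of all genes. With 2 libraries against 2, an exact permutation test of a single value cannot give a two-sided p under 0.333, so none is given. DESeq2 on the same counts called Msx2 (adjusted p = 0.00381) and none of the other 8 members that it adjusted, where it called 0.221% of the 11756 genes it adjusted as higher with dTAG-13. With a block for the replicate number, edgeR called 8 of the 10 higher (2.9% of all genes) and DESeq2 3 of the 10 (0.973%). No label ties that number to a shared culture. The fit without the block has 2 residual degrees of freedom, and the block leaves fewer. Calls made with the block therefore lean on variance estimated across all genes.

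**Figure D1:**
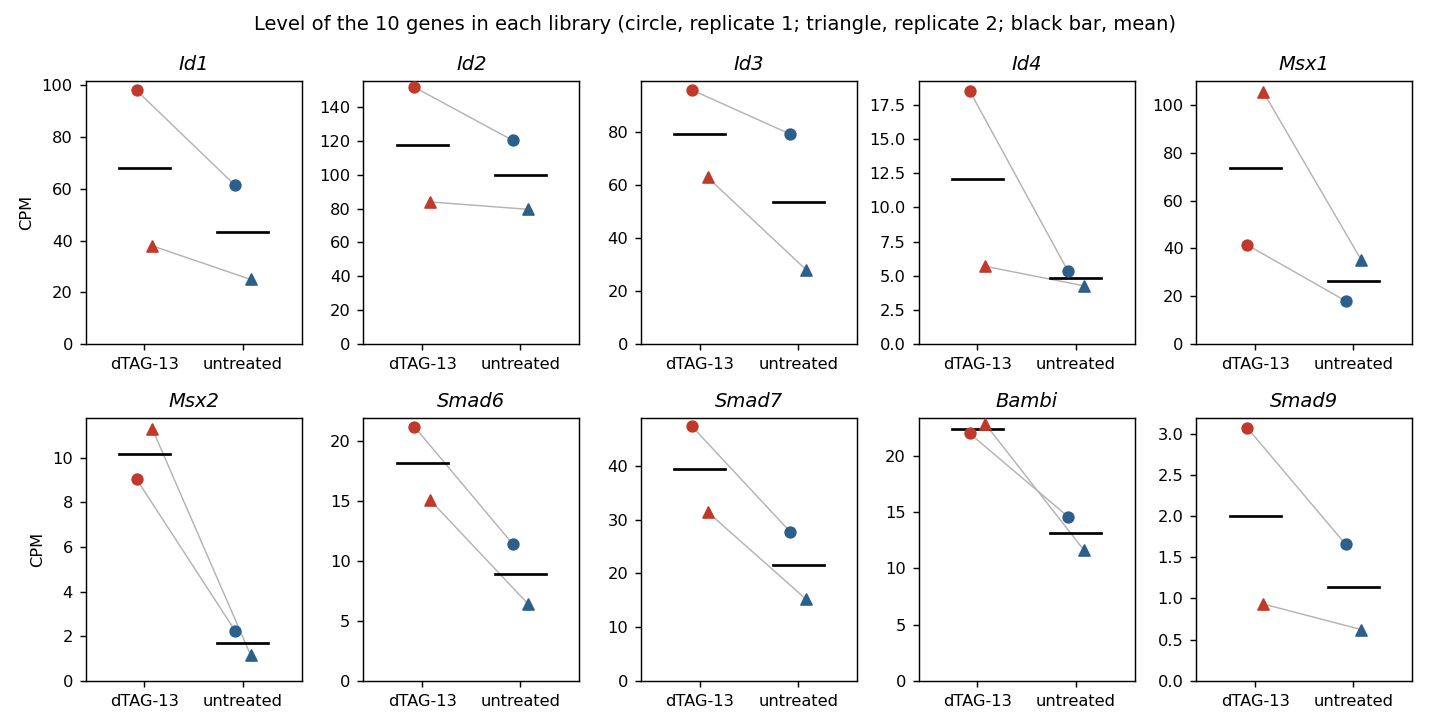
Level of each of the 10 genes in CPM (vertical axis, linear, from 0) in the 2 dTAG-13 and the 2 untreated libraries; circles are replicate 1, triangles replicate 2, black bars group means and grey lines join libraries of one number. Every grey line falls towards untreated, and for Id1, Id2, Id3 and Smad9 the libraries of replicate 1 stand above those of replicate 2 by enough that the groups overlap.

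Msx1 and Msx2 encode related homeobox repressors that act downstream of BMP in the neural plate border, limb and craniofacial tissue. Msx2 (chromosome 13, 53466881 to 53472780 in GRCm38.p6, minus strand) was at 9.04 and 11.3 CPM with dTAG-13 and at 2.26 and 1.16 CPM in untreated gastruloids. These values rest on 106 and 133 reads with dTAG-13 and on 30 and 13 reads untreated. The groups lie well apart, the lower dTAG-13 library standing 4.001-fold above the higher untreated one.
Its log2 fold change was 2.55 ± 0.43 (SE; 5.88-fold; unadjusted p = 6.85e-04, adjusted p = 0.774 by edgeR), which ranked 9 among all tested genes. With 1 library left out it stayed between 2.17, without untreated replicate 2, and 3.11, without untreated replicate 1. Msx1 (chromosome 5, 37820491 to 37824585, minus strand) was at 41.5 and 106 CPM with dTAG-13 and at 18.1 and 35.1 CPM untreated, a log2 fold change of 1.47 ± 0.63 (adjusted p = 1.00). The groups did not overlap, although within each group replicate 2 was above replicate 1. The within-number differences of Msx1 were 2.28-fold in number 1 and 2.99-fold in number 2, and the log2 fold change was 0.62 without dTAG-13 replicate 2. Of the reads of the pair, scaled to depth, Msx2 made up 17.9% and 9.67% with dTAG-13 and 11.1% and 3.19% untreated. Msx2 thus stood further above untreated than Msx1 in both numbers.

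For all 3 inhibitors of the pathway both dTAG-13 libraries stood above both untreated ones, and their fold changes had the smallest standard errors of the 10 after fitting. SMAD6 and SMAD7 are inhibitory SMADs that compete for receptors and recruit ubiquitin ligases, SMAD6 mainly against BMP and SMAD7 against both BMP and TGF-beta. Smad6 (chromosome 9, 63953076 to 64022085, minus strand) was at 21.2 and 15.1 CPM with dTAG-13 and at 11.4 and 6.41 CPM untreated. Smad7 (chromosome 18, 75367365 to 75395935, plus strand) was at 47.3 and 31.4 CPM with dTAG-13 and at 27.7 and 15.2 CPM untreated. The gap between the groups was 1.32-fold for Smad6 and 1.13-fold for Smad7 (lower dTAG-13 library over higher untreated one), and replicate 1 was above replicate 2 in both groups. Their log2 fold changes were 1.02 ± 0.35 for Smad6 (unadjusted p = 0.0227) and 0.87 ± 0.35 for Smad7 (unadjusted p = 0.0559), both with an adjusted p of 1.00. The patterns of the pair over the 4 libraries were close, with a root mean square difference of 0.083 in centred log2 CPM, and those of Smad6 and Smad7 were also the nearest to the mean pattern of all 10 genes. Bambi, a pseudoreceptor without a kinase domain (chromosome 18, 3507011 to 3516404, plus strand), was at 22.0 and 22.8 CPM with dTAG-13 and at 14.6 and 11.7 CPM untreated. It had the narrowest spread of the 10 within the dTAG-13 group, and the groups did not overlap. Its log2 fold change was 0.77 ± 0.22 (1.71-fold; unadjusted p = 0.00984, adjusted p = 0.948) and lay between 0.62 and 0.93 with any one library left out. Reads of the near-identical copy Bambi-ps1 cannot be told from those of Bambi with certainty; 3 and 1 reads were assigned to it with dTAG-13 and 8 and 7 untreated, against 258 and 269 reads with dTAG-13 and 194 and 131 untreated for Bambi.

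**Figure D2:**
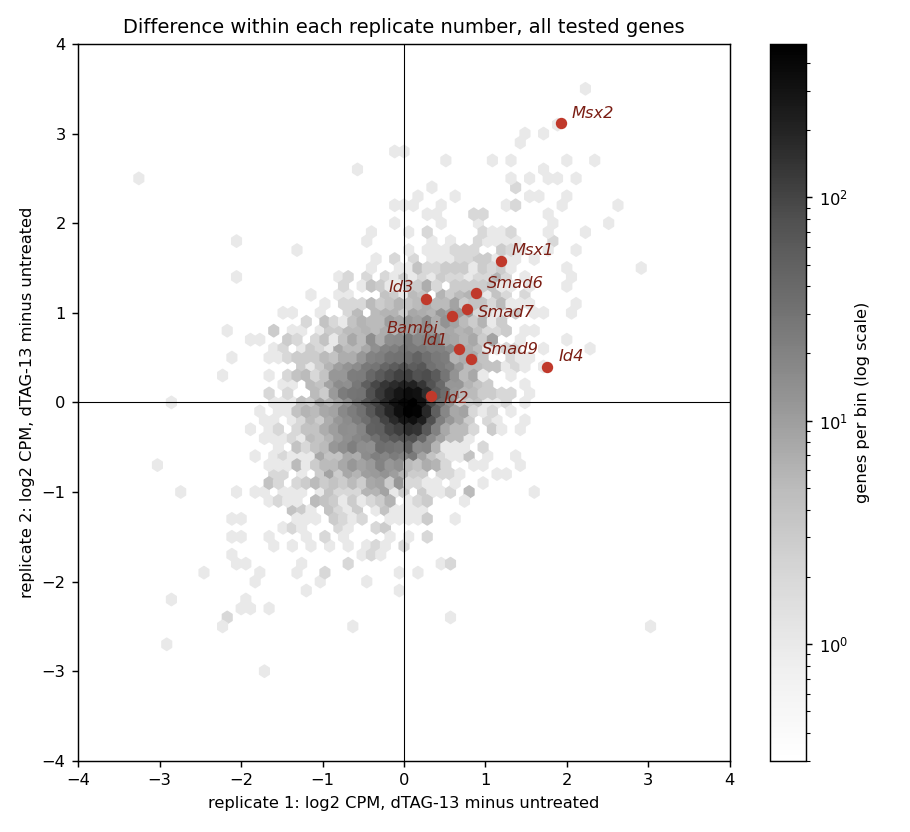
Difference in log2 CPM, dTAG-13 minus untreated, within replicate 1 (horizontal axis) and within replicate 2 (vertical axis); grey bins count the 13602 tested genes on a log scale and red points are the 10 genes. All 10 lie above 0 on both axes, Msx2 at 1.92 and 3.11 and Id2 nearest to 0 at 0.33 and 0.08.

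For Id1, Id2 and Id3 the groups overlapped, untreated replicate 1 standing above dTAG-13 replicate 2. Id1 (chromosome 2, 152736251 to 152737410, plus strand) was at 97.9 and 38.0 CPM with dTAG-13 and at 61.4 and 25.0 CPM untreated. Within a number it was 1.59-fold and 1.51-fold higher with dTAG-13, but replicate 1 was 2.57-fold above replicate 2 with dTAG-13 and 2.45-fold above it untreated. The log2 fold change of 0.65 ± 0.71 became -0.19 without dTAG-13 replicate 1. Id3 (chromosome 4, 136143822 to 136145392, plus strand) was at 95.8 and 62.8 CPM with dTAG-13 and at 79.2 and 28.1 CPM untreated, and replicate 1 was 1.52-fold above replicate 2 with dTAG-13 and 2.81-fold above it untreated. Its difference was 1.21-fold in number 1 and 2.23-fold in number 2. Over all libraries the log2 fold change was 0.56 ± 0.59; leaving out untreated replicate 2 brought it to 0.00.

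Id2, the most read of the 10 genes in every library except dTAG-13 replicate 2, where Msx1 was higher (chromosome 12, 25093799 to 25096092, minus strand), was at 152 and 83.9 CPM with dTAG-13 and at 120 and 79.5 CPM untreated. The groups overlapped and the log2 fold change of 0.24 ± 0.36 was the smallest of the 10; it was -0.25 without dTAG-13 replicate 1 and -0.03 without untreated replicate 2. Id2 is known to be driven by several signals besides BMP. Id4, which is known in neural progenitors as well as in BMP responses (chromosome 13, 48261116 to 48266028, plus strand), was at 18.5 and 5.69 CPM with dTAG-13 and at 5.35 and 4.27 CPM untreated. The groups did not overlap, but the gap was narrow, the lower dTAG-13 library standing 1.06-fold above the higher untreated one. Replicate 1 with dTAG-13 stood apart, and without it the log2 fold change of Id4 was 0.24 in place of 1.33 ± 0.59. In the annotation Id4 overlaps A330033J07Rik and Gm49291 on the opposite strand, and no source used here says whether the counting used strand, so reads of these genes cannot be told apart. Summed over the family, Id1 to Id4 came to 364 and 190.4 CPM with dTAG-13 and to 266 and 137 CPM untreated, 1.37-fold and 1.39-fold higher with dTAG-13 in numbers 1 and 2.

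Smad9, the third receptor-regulated SMAD of the BMP branch (chromosome 3, 54755455 to 54801662, plus strand), was the lowest of the 10 genes, at 3.07 and 0.934 CPM with dTAG-13 and at 1.66 and 0.623 CPM untreated. These levels rest on 36 and 11 reads with dTAG-13 and on 22 and 7 reads untreated, and the groups overlapped. The log2 fold change was 0.79 ± 0.75 and turned to -0.30 without dTAG-13 replicate 1. Its pattern over the libraries was nearest to that of Id1, with a root mean square difference of 0.075 in centred log2 CPM.

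**Figure D3:**
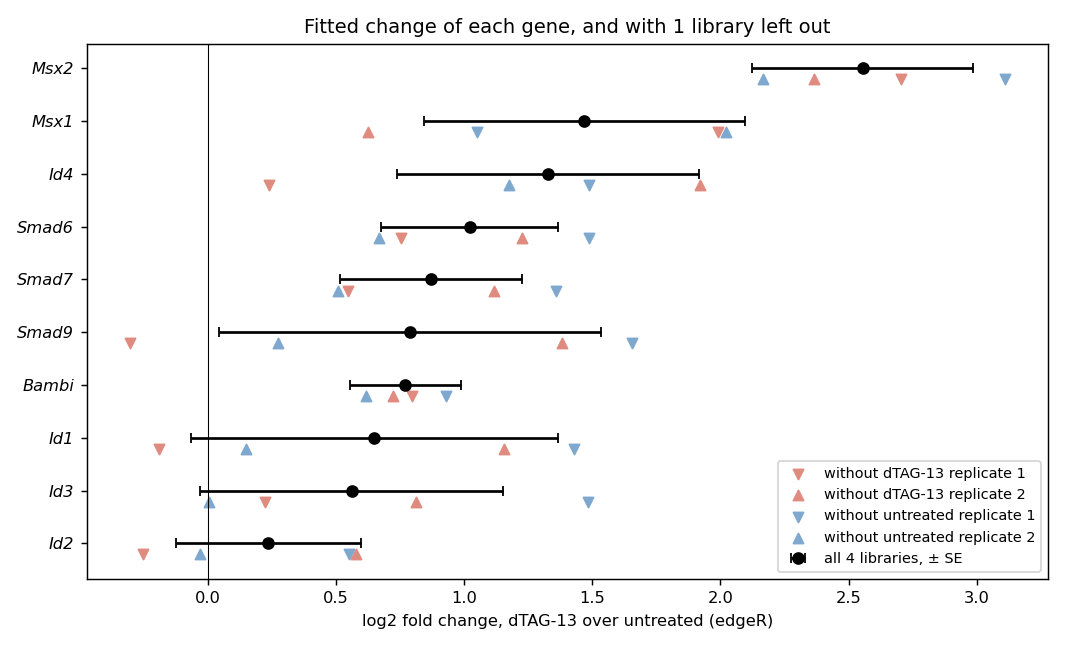
Log2 fold change of dTAG-13 over untreated for each gene from edgeR (horizontal axis), as black points with their SE for all 4 libraries and as triangles with 1 library left out. Msx2, Msx1, Smad6, Smad7 and Bambi stay above 0.5 in all 4 cases, while Id1, Id2 and Smad9 cross 0 when dTAG-13 replicate 1 is left out.

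The 10 genes differed over the replicate numbers in different directions. In 7 of the 10 (Id1, Id2, Id3, Id4, Smad6, Smad7 and Smad9) replicate 1 was above replicate 2 in both groups, by 1.40-fold to 3.19-fold with dTAG-13 and by 1.24-fold to 2.81-fold untreated. Msx1 ran the other way, replicate 1 being at 0.394 of replicate 2 with dTAG-13 and at 0.517 of it untreated. For Msx2 and Bambi replicate 1 was at 0.804 and 0.964 of replicate 2 with dTAG-13 and 1.83-fold and 1.25-fold above it untreated. Markers of lateral plate and cardiac mesoderm were, like the Id genes, higher in replicate 1 than in replicate 2: their summed level was 128 and 30.9 CPM with dTAG-13 and 95.4 and 19.6 CPM untreated. Of these markers 6 of 7 tested were higher with dTAG-13 in both numbers, 0 of 7 had groups that did not overlap, and Hand1 was at 0 reads in untreated replicate 2. The sums of neural crest, endothelial and somite markers, given below, were also higher in replicate 1 in both groups. The summed level of surface ectoderm and epithelial markers ran against the Id genes over the numbers and with them over the groups. The sum was 1053 and 2025 CPM with dTAG-13 and 593 and 885 CPM untreated. Of these markers 12 of 12 were higher with dTAG-13 in both numbers, and none was at 0. Single markers differed over the numbers. Krt19 and Tfap2a were, like the Id genes, higher in replicate 1 in both groups. Krt7, Krt8, Krt18 and Trp63 were higher in replicate 1 in the untreated group only. Grhl2, Grhl3, Epcam, Cdh1, Esrp1 and Dlx3 were higher in replicate 2 in both groups. Neural progenitor markers were lower with dTAG-13 in 10 of 10 cases, at a summed 155 and 212 CPM against 232 and 389 CPM untreated, with none at 0. Neural crest markers were at 128 and 72.1 CPM with dTAG-13 and at 112 and 52.0 CPM untreated, with 2 of 5 tested higher in both numbers and the defining gene Foxd3 at 0 reads in every library. Endothelial markers were at 168 and 67.1 CPM with dTAG-13 and at 199 and 59.3 CPM untreated, with 2 of 10 higher in both numbers and none at 0. Somite markers were at a summed 124 and 58.3 CPM with dTAG-13 and at 244 and 126 CPM untreated, with 6 of 7 tested lower with dTAG-13 in both numbers; the other, Pax9, was higher in number 1 and lower in number 2. Presomitic markers were at 196 and 155 CPM with dTAG-13 and at 222 and 247 CPM untreated, with 6 of 8 lower in both numbers and with groups that did not overlap, and with Msgn1 and Rspo3 higher in both. Endoderm markers were at 516 and 575 CPM with dTAG-13 and at 398 and 339 CPM untreated, with 8 of 10 higher in both numbers. Markers of pluripotent and germ cells were at 369 and 519 CPM with dTAG-13 and at 299 and 352 CPM untreated, with 9 of 10 higher in both numbers. Tail bud markers were at 301 and 430 CPM with dTAG-13 and at 297 and 571 CPM untreated, with 3 of 8 higher and 4 of 8 lower in both numbers. No marker of these last 5 lists was at 0 in any library. Of all 13602 tested genes, 3771 were higher in both numbers and 3250 were lower in both. Both dTAG-13 libraries were above both untreated ones in 1956 genes and below them in 1612. The markers were chosen after their values were seen. The part of any of these cell types in the differences of the 10 genes was not tested. In such bulk libraries a larger share of cells of one type and more RNA per cell cannot be told apart.

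Divided by exonic length (GENCODE vM21, the same genome build), the mean levels of the 10 genes spanned more than an order of magnitude. With dTAG-13 the means were 58.6, 48.3 and 44.3 CPM per kb for Id1, Id2 and Id3, and in untreated gastruloids 37.2, 41.0 and 30.0 CPM per kb. The library values of these 3 genes overlapped in both groups. By its mean Msx1 followed, at 23.7 CPM per kb with dTAG-13 and 8.59 CPM per kb untreated, but in dTAG-13 replicate 2 it was at 34.1 CPM per kb, where Id1, Id2 and Id3 were at 32.7, 34.4 and 35.1 CPM per kb. Smad7 was next at 8.71 CPM per kb with dTAG-13 and 4.75 CPM per kb untreated. Smad6 was at 5.67 CPM per kb with dTAG-13 and 2.79 CPM per kb untreated, and Bambi at 4.42 CPM per kb with dTAG-13 and 2.59 CPM per kb untreated. Id4 was at 4.81 and 1.48 CPM per kb with dTAG-13 and at 1.39 and 1.11 CPM per kb untreated. Msx2 was at 2.76 and 3.44 CPM per kb with dTAG-13 and at 0.689 and 0.353 CPM per kb untreated, below Id4 in every library except dTAG-13 replicate 2. Smad9 came last, at 0.373 CPM per kb with dTAG-13 and 0.212 CPM per kb untreated.

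Among the other genes of the pathway, BMP ligands were higher with dTAG-13: of 11 listed, 5 had enough reads to be tested, and all 5 were higher in both numbers, with a median log2 fold change of 0.98 and 0 past an adjusted p of 0.05. Bmp2 was at 34.5 and 25.3 CPM with dTAG-13 and at 19.1 and 10.5 CPM untreated (log2 fold change 1.01 ± 0.33, unadjusted p = 0.0235). Bmp4 was at 19.9 and 9.001 CPM with dTAG-13 and at 8.89 and 3.83 CPM untreated, and Bmp7 at 59.2 and 60.3 CPM with dTAG-13 and at 47.6 and 48.4 CPM untreated. For 3 of the 5 tested ligands (Bmp2, Bmp4 and Bmp7) both dTAG-13 libraries were above both untreated ones, against 14.4% of all tested genes. The share of all tested genes that were higher in both numbers was 27.7%. Bmp6 had a log2 fold change of 0.98 ± 0.97, and its groups overlapped. The log2 fold change was 0.32 for Bmp7 and 0.16 for Bmp5, and the groups of Bmp5 overlapped as well.

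Secreted antagonists, which bind the ligands outside the cell, had a median log2 fold change of -0.05 over 11 tested of 13 listed, with 4 above 0 and 7 below. Fst, which encodes follistatin, was at 38.7 and 39.7 CPM with dTAG-13 and at 64.5 and 56.2 CPM untreated (-0.62 ± 0.15), and Chrd, which encodes chordin, had a log2 fold change of -0.58 ± 0.35. Bmper, an extracellular BMP modulator, was at 1.06 ± 0.58 and Twsg1, which acts with chordin, at 0.13 ± 0.15 on the same scale. Both dTAG-13 libraries were below both untreated libraries for Fst and Chrd, and above both for Bmper. For Chrd the gap was narrow, dTAG-13 replicate 2 standing at 0.962 of untreated replicate 2. Of all 13602 tested genes, 1612 were below in this way and 1956 above. Receptors and co-receptors showed little difference, with a median of -0.01 over 9 tested of 10 and 0 with groups that did not overlap. Rgma, a BMP co-receptor, had a log2 fold change of -0.69 ± 0.69, Bmpr1b of 0.26 ± 0.37, Acvr2b of -0.11 ± 0.17 and Bmpr2 of 0.09 ± 0.19. The SMADs, corepressors, phosphatases and ubiquitin ligases outside the 10 genes had a median of 0.06 over 10 tested. Smad1, which carries the signal, had a log2 fold change of 0.13 ± 0.17, Ctdnep1, a phosphatase, of 0.10 ± 0.14, and Skil, a SMAD corepressor, of 0.34 ± 0.17. The E proteins that ID proteins bind were also nearly level: the log2 fold change was -0.04 ± 0.13 for Tcf3, -0.21 ± 0.15 for Tcf4 and -0.17 ± 0.16 for Tcf12. All 3 were lower with dTAG-13 in both numbers, as were 3250 of all 13602 tested genes. For Tcf3 both dTAG-13 libraries were below both untreated ones, by a narrow gap. In edgeR 0 genes of these 4 lists passed an adjusted p of 0.05.

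**Figure D4:**
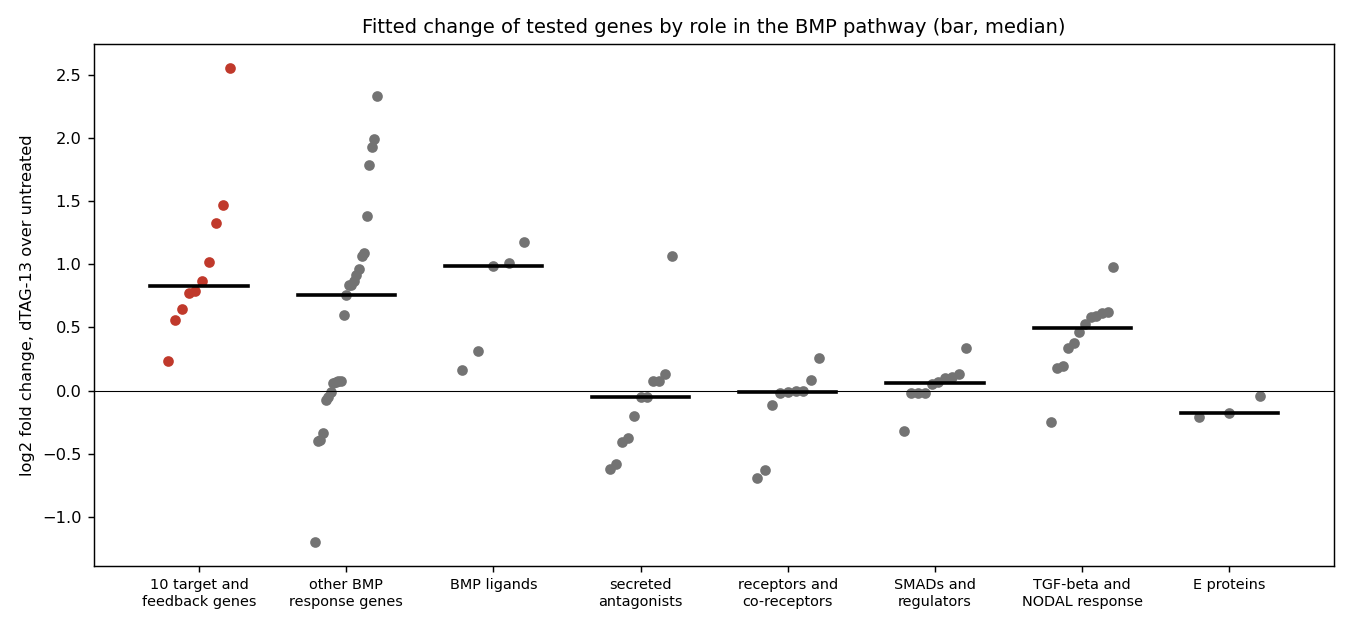
Log2 fold change of dTAG-13 over untreated (vertical axis, edgeR) for the tested genes of each pathway list, with the 10 genes in red, other genes in grey and black bars at the medians. The medians are 0.83 for the 10 genes, 0.76 for other BMP response genes, 0.98 for ligands and 0.50 for TGF-beta and NODAL response genes. They lie between -0.17 and 0.06 for antagonists, receptors, SMADs and E proteins.

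Other genes known to respond to BMP in embryos or cell lines had a median log2 fold change of 0.76 over 25 tested of 26 listed, with 15 higher and 5 lower in both numbers and 0 past an adjusted p of 0.05. In 8 of them both dTAG-13 libraries were above both untreated libraries. In 1, Msx3, both were below, at 0.512 and 0.934 CPM with dTAG-13 and at 1.05 and 2.31 CPM untreated. Across all tested genes, 27.7% were higher in both numbers and 14.4% had both dTAG-13 libraries above both untreated ones. Dlx5, a homeobox gene of the neural plate border, was at 16.2 and 49.2 CPM with dTAG-13 and at 4.44 and 8.63 CPM untreated (2.33 ± 0.69), and its neighbour Dlx6 was at 3.92 and 9.17 CPM with dTAG-13 and at 0.979 and 2.49 CPM untreated (1.92 ± 0.63). Like Msx1, both were higher in replicate 2 than in replicate 1 in each group. Tfap2a, a transcription factor of surface ectoderm and neural crest that also stands among the surface ectoderm markers, was at 11.9 and 11.4 CPM with dTAG-13 and at 4.75 and 1.96 CPM untreated (1.79 ± 0.45). Tbx3, a T-box repressor, was at 22.9 and 21.3 CPM with dTAG-13 and at 11.8 and 11.7 CPM untreated (0.91 ± 0.20). Genes known to respond to TGF-beta or NODAL had a median of 0.50 over 12 tested. Of these, 11 were higher in both numbers (27.7% of all tested genes). In 6 of them both dTAG-13 libraries were above both untreated ones (14.4% of all tested genes). Tdgf1, the NODAL co-receptor, was at 56.4 and 40.7 CPM with dTAG-13 and at 36.8 and 30.3 CPM untreated (0.53 ± 0.20), Lefty2, a NODAL inhibitor, had a log2 fold change of 0.61 ± 0.29 and Pmepa1, a feedback inhibitor of TGF-beta, of 0.97 ± 0.41. The direction seen for the 10 genes was therefore shared by lists outside the BMP branch, and whether the lists differ from one another was not tested.

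Outside the 10 genes themselves, those most like the mean pattern of the 10 over the 4 libraries, among those whose log2 CPM averaged 1 or more, were Cyp1b1, Bmp2, Krt19, Sema3d and Reps2. Their root mean square differences from that pattern were 0.073, 0.076, 0.095, 0.096 and 0.105 in centred log2 CPM. Of the 10 genes, Smad6 at 0.060 and Smad7 at 0.078 lay nearest to their own mean pattern, which they help to set. Bmp2 is the ligand described above. Krt19, a keratin of simple epithelia, was at 63.3 and 40.4 CPM with dTAG-13 and at 33.7 and 23.2 CPM untreated. These are likenesses over 4 libraries and carry no test.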

How the data were processed

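RNA was sequenced from 4 libraries of somitic gastruloids, made with a ribosomal RNA depletion kit per the labels' protocols. The submitters' processing notes list HTSeq 0.12.4, STAR 2.7.6a, fastp 0.20.1 and DESeq2 1.34.0, with mm10 and GRCm38.p6 as builds, and give no role for any of them; the annotation and the use of strand in counting are not given in these notes. The deposited values are raw read counts per gene symbol from the authors, without normalization.

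The HTSeq summary rows did not enter library sizes or tests; reads in no gene were 24.1% to 35.7%. Genes were filtered with filterByExpr (minimum count 10, minimum total 15), scaled with TMM and tested in edgeR 4.0.16 (R 4.3.3) with robust glmQLFit and a two-sided glmQLFTest on all 4 libraries, the group being the only term, and p-values were adjusted by Benjamini-Hochberg over 13602 genes (threshold 0.05). SE is the absolute log2 fold change over the square root of F. CPM uses TMM library sizes; log2 CPM adds a prior count of 2. DESeq2 1.42.0, other scalings, other filters, a replicate block and each library left out were alternatives.

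The members, gene lists and tests were chosen with earlier results of these data known. All 10 members are named; from other pathway lists up to 4 genes of smallest p are named where the average log2 CPM was 0 or more, and others named (markers) were chosen after their values were seen. Libraries of one group were not 1 library deposited under both names: chi-square per degree of freedom was 32.7 for the dTAG-13 pair and 38.4 for the untreated pair. Between the groups it was lower, at 26.3 in number 1 and 24.1 in number 2. Coordinates are RefSeq's for GRCm38.p6.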

Additional observations from a re-analysis of the deposited data

How the results depend on the processing

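The direction of Id4, Msx1, Msx2, Smad6, Smad7 and Bambi was the same under all 11 alternatives. That of Id3 did not reverse, but its log2 fold change was only 0.0034 without untreated replicate 2. All 10 genes kept one direction in both replicate numbers with RLE factors, upper quartile factors or a prior count of 0.5. The median log2 fold change of the 10 genes was lowest (0.39) without dTAG-13 replicate 1 and highest (1.45) without untreated replicate 1; leaving out untreated replicate 2 gave 0.56 and leaving out dTAG-13 replicate 2 gave 1.14. With one library left out the log2 fold change ranged from -0.19 to 1.43 for Id1, from -0.25 to 0.58 for Id2 and from -0.30 to 1.65 for Smad9. It was below 0 for all 3 when dTAG-13 replicate 1 was left out, and for Id2 also when untreated replicate 2 was (-0.03). In each such fit the lone library of a group is assumed to vary like the other group. Genes past 0.05 numbered 0 in edgeR with the group as the only term (479 with an unadjusted p under 0.05), 40 in DESeq2, 636 with the replicate block in edgeR and 164 with the replicate block in DESeq2; it was 0 with any one library left out. Members past 0.05 numbered 0, 1 (Msx2), 8 and 3 in the same fits, all higher with dTAG-13, against 2.9% of all genes called higher with the block in edgeR and 0.973% in DESeq2. With the replicate block, edgeR called all but Id2 (adjusted p = 0.707) and Smad9 (adjusted p = 0.566), and DESeq2 called Msx1, Msx2 and Smad7. The block leaves fewer than the 2 residual degrees of freedom of the fit without it. No label says that the number marks a shared culture; deviations from the group mean correlated at 0.63 between same-numbered libraries across genes, a hint from the data only. Depth limits Smad9, with 7 to 36 reads per library, and Msx2 in untreated gastruloids.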
